A study of Mus musculus with 23 samples.

Results

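The 38 Hox cluster genes described here were picked from a table of 47643 mouse genes by their symbols. No measured value entered that rule, but the list was chosen with earlier results of these data known. The genes lie in 4 clusters. Of the listed genes, 10 belong to cluster A (chr6:52162417-52260880), 10 to cluster B (chr11:96194316-96368256), 9 to cluster C (chr15:102921103-103036852) and 9 to cluster D (chr2:74668310-74765142), with positions from GENCODE M21 on GRCm38, the assembly that mm10 names. All 38 are annotated as protein-coding. Each gene is numbered by its paralog group, from 1 to 13. Groups 1 to 3 are called anterior below, groups 4 to 8 central, and groups 9 to 13 posterior.

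Hox genes encode homeodomain transcription factors that give cells of the embryo their position along the body axis, and within a cluster the order of the genes on the chromosome follows the order of their expression domains. Adult cells and cell lines often keep part of that pattern, which is maintained by Polycomb complexes at silent genes and Trithorax-group proteins at active genes and can be set by retinoic acid. Melanocytes descend from the neural crest, and Hox proteins act on DNA together with cofactors of the Pbx and Meis families.

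The study asked how loss of the orphan nuclear receptor NR2F6 in melanoma cells changes a tumor and its surroundings. RNA was sequenced from B16F10, a pigmented melanoma line of C57BL/6 origin, as whole tumors (bulk), as tumor cells recovered from collagenase-digested tumors by magnetic depletion of stromal cells (sorted), and as cells grown in culture. Each of these 3 sample types had 2 control, 2 sg492 and 2 sg495 libraries, which makes 9 groups and 18 libraries. Control libraries carry the genotype label WT, and sg492 and sg495 the label NR2F6 KO, after 2 different guides delivered with Cas9 protein.

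By the study's methods the edited cells were sorted for labelled guide RNA, and no step that derives single clones is stated. The methods name young adult male C57BL/6 mice as hosts for B16F10 cells injected under the skin of the flank. The sources used here do not tie a library to an animal or a culture, so the spread between 2 libraries of a group may be technical. Sorted cells passed through digestion and depletion, which bulk tumors and cultured cells did not, so that growth in a mouse and the isolation itself cannot be told apart in a comparison of sorted with cultured cells.

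Promoter windows are shown for neighbours within a cluster whose transcripts stood at opposite ends of the scale, Hoxa10 and Hoxa11 beside the silent Hoxa13, and Hoxd13 beside the nearly silent Hoxd12. Each runs from 250 bases before to 50 bases after a RefSeq start on GRCm38.p6 and is written on the strand of the gene, with CpG dinucleotides in capitals. The windows are Hoxa10 upstream start (chr6:52240805-52241104, minus strand), Hoxa10 downstream start (chr6:52234890-52235189, minus strand), Hoxa11 (chr6:52245761-52246060, minus strand), Hoxa13 (chr6:52260831-52261130, minus strand), Hoxd12 (chr2:74674763-74675062, plus strand) and Hoxd13 (chr2:74667975-74668274, plus strand).
Hoxa10 upstream start: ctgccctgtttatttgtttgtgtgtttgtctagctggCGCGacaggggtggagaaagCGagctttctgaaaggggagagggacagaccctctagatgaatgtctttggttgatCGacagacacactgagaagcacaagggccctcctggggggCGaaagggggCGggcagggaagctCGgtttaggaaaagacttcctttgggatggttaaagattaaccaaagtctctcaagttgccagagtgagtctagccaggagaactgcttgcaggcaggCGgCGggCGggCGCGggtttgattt
Hoxa10 downstream start: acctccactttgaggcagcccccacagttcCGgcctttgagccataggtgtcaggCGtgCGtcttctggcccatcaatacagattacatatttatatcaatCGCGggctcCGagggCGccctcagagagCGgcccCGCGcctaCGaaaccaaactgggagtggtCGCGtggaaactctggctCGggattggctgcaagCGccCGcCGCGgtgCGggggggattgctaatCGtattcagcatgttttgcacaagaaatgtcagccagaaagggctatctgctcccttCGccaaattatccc
Hoxa11: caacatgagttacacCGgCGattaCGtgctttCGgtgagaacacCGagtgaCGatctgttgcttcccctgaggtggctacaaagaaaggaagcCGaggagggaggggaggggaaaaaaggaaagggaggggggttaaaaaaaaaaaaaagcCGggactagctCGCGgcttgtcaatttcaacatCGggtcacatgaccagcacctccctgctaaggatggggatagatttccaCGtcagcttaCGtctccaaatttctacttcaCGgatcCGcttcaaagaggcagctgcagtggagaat
Hoxa13: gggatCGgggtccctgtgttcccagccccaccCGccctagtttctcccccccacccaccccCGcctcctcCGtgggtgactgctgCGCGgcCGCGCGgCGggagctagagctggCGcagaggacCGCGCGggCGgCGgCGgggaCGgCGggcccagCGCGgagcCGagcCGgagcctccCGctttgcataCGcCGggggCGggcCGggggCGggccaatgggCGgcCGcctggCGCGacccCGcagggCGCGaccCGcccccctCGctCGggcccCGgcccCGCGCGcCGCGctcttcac
Hoxd12: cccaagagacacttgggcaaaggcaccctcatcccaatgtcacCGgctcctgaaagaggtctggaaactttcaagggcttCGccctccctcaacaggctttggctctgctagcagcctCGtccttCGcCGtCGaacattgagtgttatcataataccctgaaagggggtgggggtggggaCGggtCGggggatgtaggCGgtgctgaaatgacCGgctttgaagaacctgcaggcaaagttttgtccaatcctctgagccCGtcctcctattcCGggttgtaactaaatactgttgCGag
Hoxd13: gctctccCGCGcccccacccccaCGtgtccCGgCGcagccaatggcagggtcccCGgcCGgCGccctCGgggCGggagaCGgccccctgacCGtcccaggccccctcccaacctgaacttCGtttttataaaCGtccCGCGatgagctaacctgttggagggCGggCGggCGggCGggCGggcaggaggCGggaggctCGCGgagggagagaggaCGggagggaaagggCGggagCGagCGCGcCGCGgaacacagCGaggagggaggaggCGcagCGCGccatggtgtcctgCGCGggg

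The silent gene of these examples had the most CpG. The window of Hoxa13, which was listed at 0 in every library, held 45 CpG, more than in 98.1% of the 32851 windows of the RefSeq table. The window of Hoxd13, among the higher genes of the line, held 37, and that of Hoxd12 held 13. The Hoxa11 window held 15, and those of Hoxa10 held 12 and 21. Over the 24 windows found for 22 of the 38 genes, the count ranged from 4 to 45 with a median of 14.5, against a median of 7 over all windows.

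NR2F6 belongs to a family of receptors that bind direct repeats of the half-site AGGTCA. These letters, on either strand, stood in 7 of the 24 Hox windows, which belong to Hoxa5, Hoxb4, Hoxc4, Hoxd3, Hoxd4, Hoxd8 and Hoxd10, and in 16.3% of all windows. The Hoxa11 window did not hold them, and Hoxb9 had no window in which to look. A match of 6 letters is a description of the window and not a binding site.

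Expression is given as TPM, a transcript abundance scaled for gene length and for the total of a library, which can be compared between genes. Each library was sequenced to between 23000000 and 31000000 reads by the labels, but TPM keep no depth, so that no counting interval can be given and a 0 may be a transcript too rare to be listed. Nr2f6 itself, the edited gene, was read at between 17.7 and 32.9 TPM in the 6 control libraries and between 10.6 and 22.4 TPM in the 6 sg495 libraries, which lay below both controls of their type throughout. The sg492 libraries lay below both controls in bulk (22.3 and 23.3 against 25.8 and 25.2 TPM) and in culture (26.6 and 31.5 against 31.9 and 32.9 TPM), and overlapped them in sorted cells (19.8 and 25.7 against 20.3 and 17.7 TPM). Small indels need not lower a transcript. Melanocyte markers (8 genes) summed to between 15290 and 18200 TPM in all 18 libraries. Their median was lower in tumors, at 1689 to 1829 TPM in cultured, 917.9 to 1136 in sorted and 1139 to 1282 in bulk libraries. Fibroblast markers (10 genes) summed to 395.1 to 1091 TPM in bulk tumors, 4.45 to 7.0 in sorted cells and 10.3 to 15.5 in cultured cells. Leukocyte markers (10 genes) summed to 320.4 to 695.2 TPM in bulk, 7.47 to 16.6 in sorted and 3.99 to 7.33 in cultured libraries. Ptprc (CD45), the leukocyte-defining marker, was at 0 in all cultured libraries and at most 0.15 TPM in the sorted ones, and at 5.74 to 26.2 TPM in bulk tumors.

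B16F10 cells carried a partial Hox pattern, with transcripts from clusters A, B and D and next to none from cluster C. The same 12 genes reached a mean of 1 TPM in cultured cells and in sorted cells, 7 from cluster A (Hoxa3, Hoxa5, Hoxa6, Hoxa7, Hoxa9, Hoxa10 and Hoxa11), 3 from cluster B (Hoxb3, Hoxb6 and Hoxb9) and 2 from cluster D (Hoxd4 and Hoxd13). None of the 9 cluster C genes reached a mean of 0.1 TPM in cultured cells. In the cultured libraries 12 of the 38 genes were listed at 0 in all 6, and 8 of these 12 were posterior genes.

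**Figure D1:**
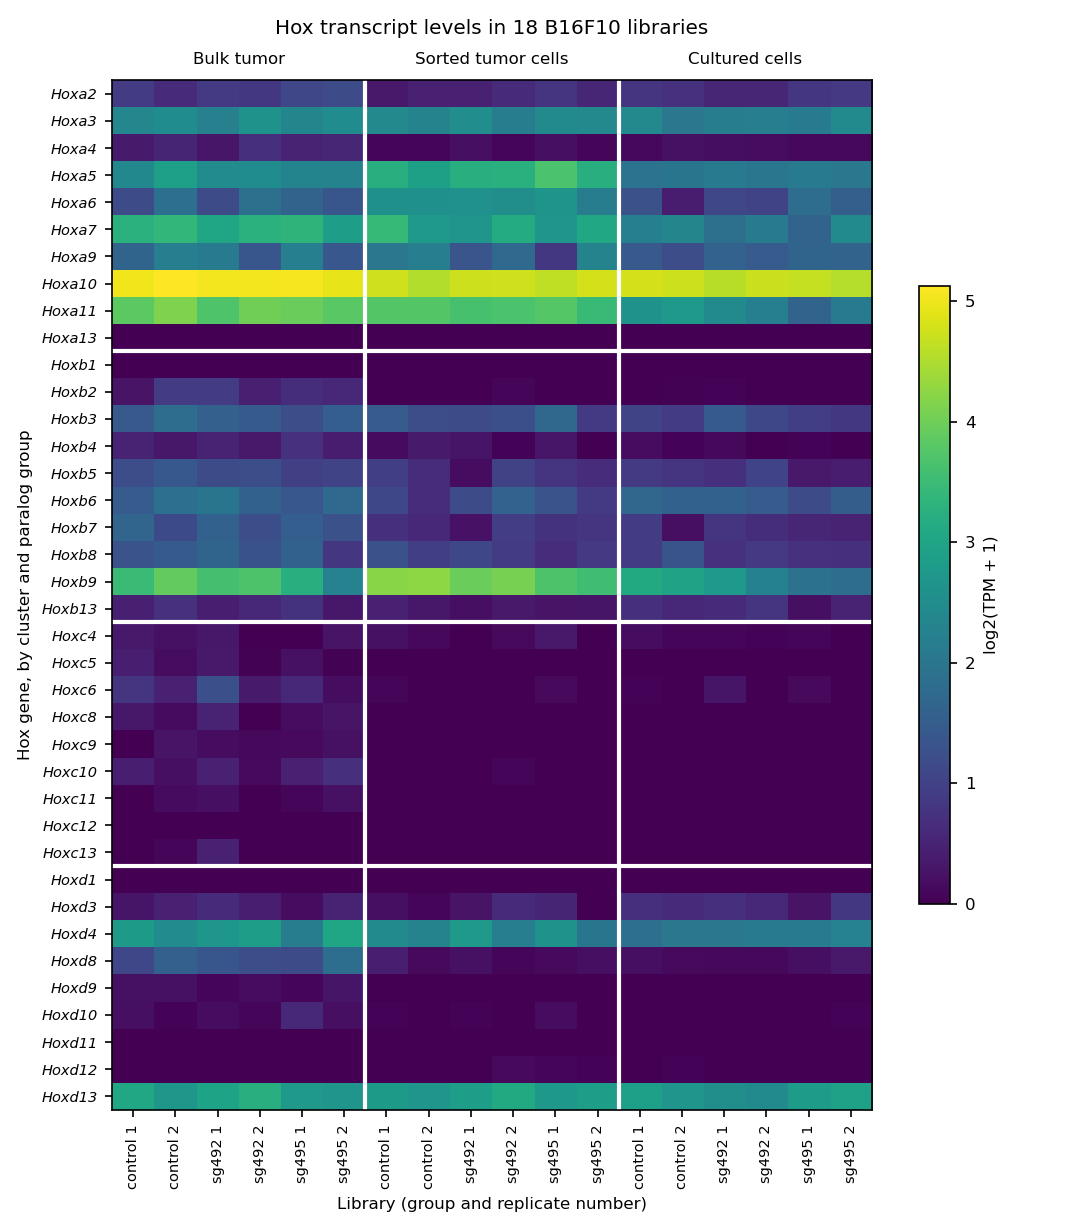
Heat map of log2(TPM + 1) for the 38 Hox genes (rows, by cluster and paralog group) in the 18 libraries (columns, by sample type, group and replicate number). Hoxa10 is the brightest row in every library, the cluster C block is dark in sorted and cultured cells, and faint cluster C signal appears in the bulk columns.

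The summed TPM of the 38 genes lay between 57.2 and 70.8 in cultured cells, between 88.8 and 104.4 in sorted cells and between 92.2 and 117.6 in bulk tumors. The cultured libraries were therefore all below the others. Cluster A gave 61.1% to 72.9% of that sum in every library. Cluster C gave at most 0.30 TPM in cultured cells and at most 0.38 TPM in sorted cells, but 0.48 to 3.37 TPM in bulk tumors.

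Hoxa10, a posterior gene (chr6:52231197-52240854) with roles in limb, uterus and blood development, was the highest Hox transcript in all 3 sample types. Its TPM ranged from 22.5 to 26.8 in cultured cells (median 24.9), from 22.1 to 26.6 in sorted cells (median 25.7) and from 29.5 to 33.9 in bulk tumors (median 31.7). Cultured and sorted ranges overlapped almost entirely, and every bulk library lay above them. In bulk tumors it made up between 28.8% and 32.0% of the Hox sum.

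Below Hoxa10 the order was close. In sorted cells Hoxb9 followed at 10.68 to 17.99 TPM and Hoxa11 at 10.1 to 12.7, with overlapping ranges, and then Hoxa5, Hoxa7 and Hoxd13. In cultured cells the next places went to Hoxd13 at 4.46 to 6.65 TPM, Hoxb9 at 2.57 to 7.70 and Hoxa11 at 2.12 to 5.75, all overlapping. The range of Hoxa10 did not overlap that of the next gene in any of the 3 sample types.

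Hoxd13, the last gene of cluster D and a regulator of digit formation, stood alone among the posterior genes of its cluster. Its TPM ranged from 4.46 to 6.65 in cultured cells (median 5.68), 5.42 to 7.67 in sorted cells (median 6.07) and 5.41 to 8.26 in bulk tumors (median 6.295). Its neighbours Hoxd12 and Hoxd11 were at no more than 0.10 TPM and at 0. Hoxd4, the other gene of cluster D above 1 TPM in all sample types, ranged from 2.66 to 3.81 TPM in cultured cells (median 3.20), 3.0 to 5.73 in sorted cells (median 4.16) and 3.50 to 7.16 in bulk tumors. Its value is uncertain, since 43.9% of the 75-base sequences in its annotated transcripts, the length of a read, also occur in transcripts of Hoxd3 or of an unnamed overlapping gene model.

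Hoxa3, Hoxa9, Hoxb3 and Hoxb6 were low and showed no gap between sample types, while Hoxa6, the remaining gene of the 12, was lower in cultured than in sorted libraries without overlap. Hoxa3, an anterior gene needed for thymus and parathyroid development, ranged from 3.11 to 4.48 TPM in cultured cells, 3.53 to 4.73 in sorted cells and 3.69 to 5.12 in bulk tumors. Hoxa9, known for its part in blood stem cells and leukemia, ranged from 1.32 to 2.14, 0.78 to 3.89 and 1.57 to 3.65 TPM in the same order. Hoxb3 ranged from 0.79 to 1.74, 0.83 to 2.28 and 1.35 to 2.57 TPM, and Hoxb6 from 1.24 to 2.21, 0.56 to 2.07 and 1.62 to 2.99 TPM. Each of these genes overlapped between all 3 types. Hoxa3 shares 6.87% of its 75-base sequences with an overlapping gene model, and its annotated span takes in Hoxa4, Hoxa5 and Hoxa6.

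**Figure D2:**
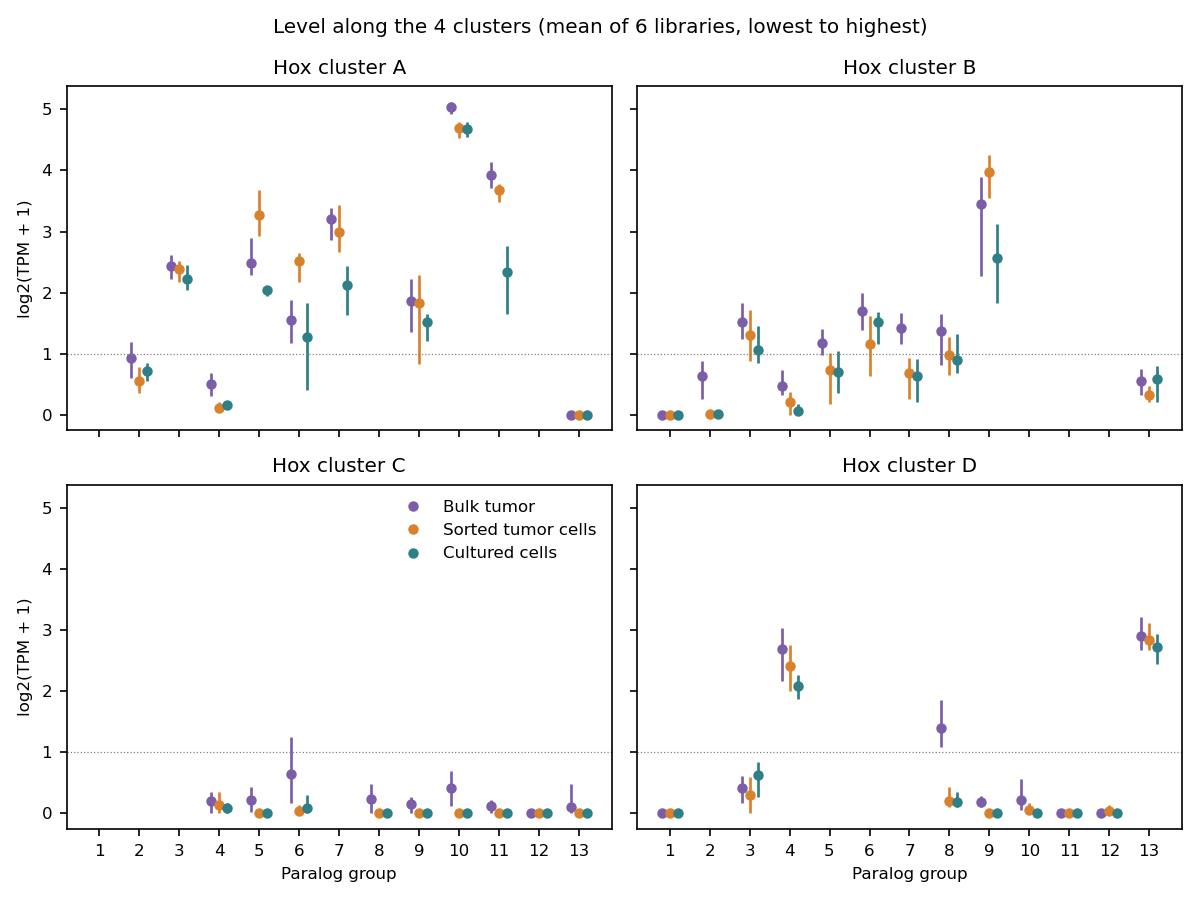
Mean TPM of 6 libraries per sample type along each cluster, drawn as log2(TPM + 1) against paralog group, with vertical lines from the lowest to the highest library. The dotted line marks 1 TPM. Cluster A is high at groups 10 and 11 and silent at group 13, cluster D is high at groups 4 and 13, and cluster C stays low throughout.

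The first comparison asked which Hox genes differed between tumor cells taken from a mouse and the same line in culture. Sorted cells had more of 5 Hox transcripts, the central genes Hoxa5, Hoxa6 and Hoxa7 and the posterior genes Hoxa11 and Hoxb9. All 5 passed the test (limma on log2(TPM + 1), Benjamini-Hochberg adjustment over 16381 genes, at least 1.5-fold) in 19 Hox genes tested, and 0 of the 19 were called lower. Of all genes tested, 13.7% were called higher in sorted cells and 7.44% lower, or 2247 and 1218 genes, a split that was 1692 and 1550 after quantile normalization. The other 19 of the 38 Hox genes fell under the filter of a mean of 0.25 TPM over the 18 libraries. The median difference over the tested Hox genes was 0.13 on the log2 scale, beside 0.03 over all genes.

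Hoxb9 (chr11:96271457-96276595), a posterior gene that helps to pattern the thorax, had the largest difference of the 19 on the log2(TPM + 1) scale. With a pseudocount of 0.1 Hoxa6 exceeded it, at 1.88 against 1.67. The 6 sorted libraries read 17.61 and 17.99 TPM (control), 14.5 and 15.9 (sg492) and 11.9 and 10.7 (sg495), and the cultured libraries 7.70 and 6.79, 5.76 and 3.79, and 2.75 and 2.57. Every sorted library lay above every cultured one. The difference was 1.48 on the log2(TPM + 1) scale (SE 0.144, adjusted p = 2.12e-06).

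Hoxa11 (chr6:52242106-52245810), which patterns the forearm and the reproductive tract, read 12.5 and 12.4 TPM (control), 11.4 and 11.8 (sg492) and 12.7 and 10.1 (sg495) in sorted cells. In culture it read 5.08 and 5.75, 4.46 and 3.63, and 2.12 and 3.27. No library overlapped, and the log2 difference was 1.39 (SE 0.0997, adjusted p = 1.58e-07). Bulk tumors were as high, at 12.1 to 16.5 TPM. The antisense gene Hoxa11os moved the same way, from 2.56 TPM in culture to 12.2 in sorted cells (log2 difference 1.94). The library kit marks strand, but the setting used in counting is not given in the sources used here, so that reads of Hoxa11 and Hoxa11os may not be fully separated.

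Hoxa5 (chr6:52201754-52204587), a gene of lung, thyroid and mammary development, ranged from 6.57 to 11.8 TPM in sorted cells (median 8.405) and from 2.85 to 3.31 in cultured cells (median 3.10). The cultured values lay within a narrow band far below the sorted ones. Its difference was 1.22 on the log2 scale (SE 0.104, adjusted p = 6.79e-07). Hoxa6 (chr6:52206288-52208722), the next gene in the cluster, ranged from 3.52 to 5.28 TPM in sorted cells (median 4.93) and from 0.32 to 2.57 in cultured cells (median 1.27), with a log2 difference of 1.32 (SE 0.181, adjusted p = 4.57e-05). Hoxa7 (chr6:52214491-52221854) ranged from 5.34 to 9.78 TPM in sorted cells (median 6.55) and from 2.10 to 4.40 in cultured cells (median 3.47). In bulk tumors Hoxa7 ranged from 6.27 to 9.48 TPM, above all cultured libraries and overlapping the sorted ones. It had the smallest called difference, 0.86 (SE 0.169, adjusted p = 7.74e-04). The 5 genes were also those whose 6 sorted libraries all lay above the 6 cultured ones. They are 18.5% of the 27 Hox genes above 0 in at least 1 of these 12 libraries, and the arrangement held for 12.1% of the 24817 such genes in the table. No Hox gene showed the reverse, which held for 11.4%.

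**Figure D3:**
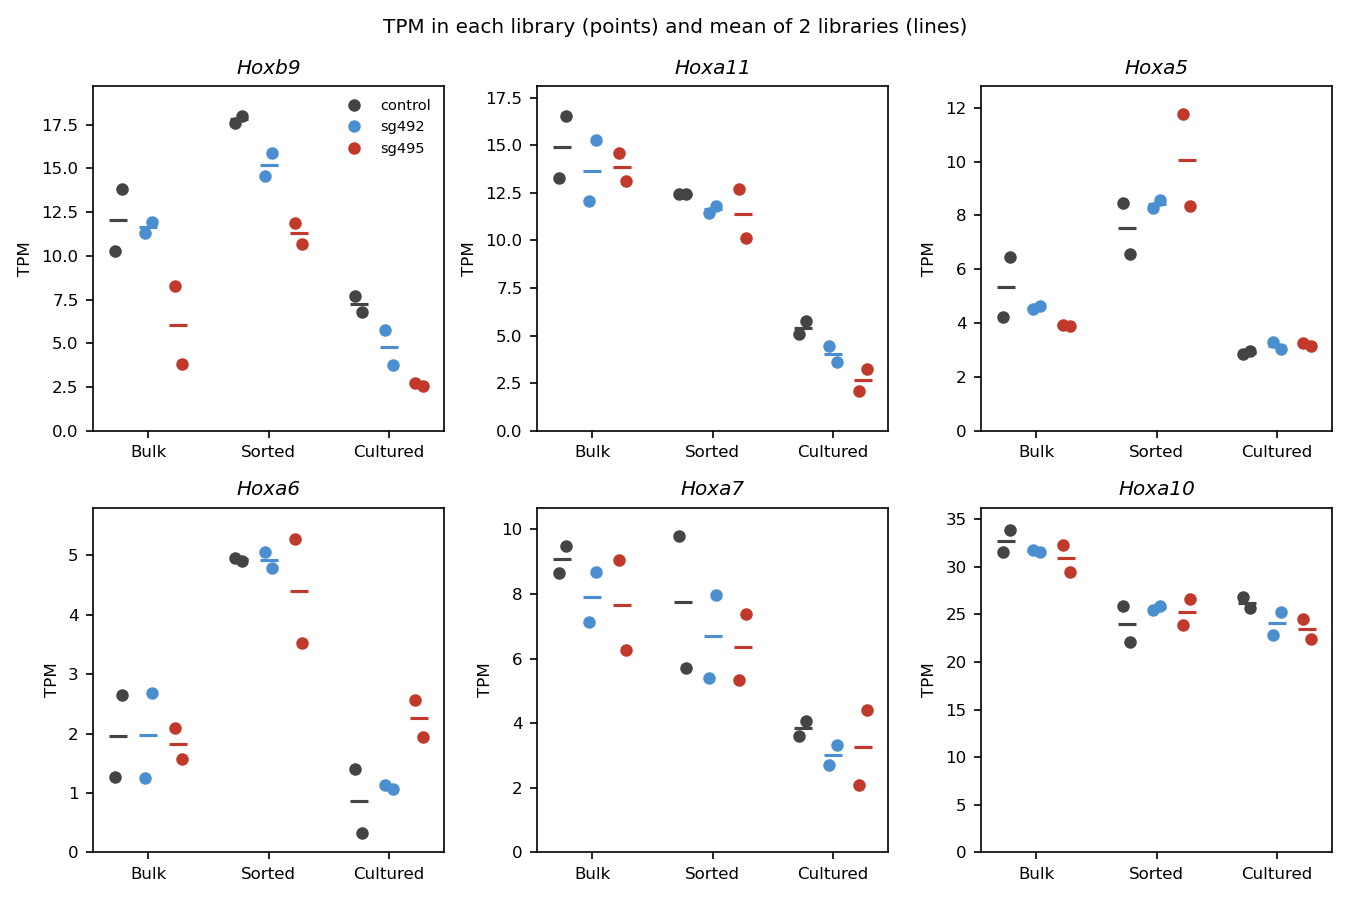
TPM of 6 Hox genes in each library (points, coloured by control, sg492 and sg495) with the mean of 2 libraries (short lines), by sample type on a linear axis from 0. Sorted points of Hoxb9, Hoxa11, Hoxa5, Hoxa6 and Hoxa7 all lie above the cultured points, Hoxa10 overlaps between the 2, and sg495 points of Hoxb9 lie below control points in all 3 sample types.

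Hoxa5, Hoxa6 and Hoxa7 are adjacent in cluster A. Apart from these, Hoxa11 and Hoxb9, the genes of clusters A and B that were tested missed the test. Hoxa10, between Hoxa9 and Hoxa11, differed by 0.02 on the log2 scale (SE 0.0514, adjusted p = 0.76) and Hoxa9 by 0.24 (SE 0.241, adjusted p = 0.429). Hoxb6 had a value below 0, at -0.39 (adjusted p = 0.0357), and missed the 1.5-fold threshold. No gene of cluster D was called, with Hoxd13 at 0.13 (SE 0.0856, adjusted p = 0.227) and Hoxd3 at -0.33 (adjusted p = 0.0487, under 1.5-fold). The median of the 8 melanocyte markers was 917.9 to 1136 TPM in sorted and 1689 to 1829 TPM in cultured libraries, and Mlana, a melanosome protein, was at 1322 to 1754 and 2984 to 3312 TPM, without overlap. Their part in the Hox differences was not tested. Endothelial markers (8 genes) summed to 14.1 to 32.2 TPM in sorted cells and 0.33 to 1.60 in cultured cells, and their part was not tested either. The sorted sum rested on few of them, with a median of 0 to 0.065 TPM and 3 to 5 of the 8 genes at 0. Pecam1, an endothelial-defining marker, reached at most 0.85 TPM in sorted cells, and Col1a1 at most 1.92.

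The second comparison set whole tumors beside the sorted cells, to separate the tumor cells from the tissue around them. Bulk tumors had more of Hoxd8 and Hoxb7 and less of Hoxa5, Hoxa6 and Hoxb9. Of the 19 Hox genes tested, 2 were called higher in bulk, where 11.1% of all 16381 genes were, and 3 lower, where 3.95% were. Over all genes these were 1823 and 647, and after quantile normalization 1376 and 1314. In bulk RNA, fewer cells of a type and less RNA per cell cannot be told apart. The median difference over the tested Hox genes was 0.23, beside 0.05 over all genes.

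Hoxd8 (chr2:74704615-74707933), a central gene of cluster D, read 1.13 and 1.98 TPM (control), 1.58 and 1.32 (sg492) and 1.24 and 2.61 (sg495) in bulk tumors. It was at 0.07 to 0.35 TPM in sorted cells and 0.08 to 0.27 in cultured cells, below every bulk library. The log2 difference was 1.17 (SE 0.129, limma adjusted p = 9.77e-06). Its sorted and cultured means, 0.155 and 0.138 TPM, lay under the filter of 0.25 TPM, which it passed only through the bulk libraries. The p-value is therefore not separate support for the difference. Hoxb7 (chr11:96286623-96290162) ranged from 1.23 to 2.19 TPM in bulk tumors (median 1.655), from 0.19 to 0.90 in sorted cells (median 0.655) and from 0.16 to 0.88 in cultured cells (median 0.53). Bulk and sorted libraries did not overlap, and the difference was 0.745 (SE 0.1555, adjusted p = 0.00176). After quantile normalization it was 0.41 and no longer called (adjusted p = 0.0512). Hoxb5, at 0.96 to 1.65 TPM in bulk and 0.13 to 1.01 in sorted cells, and Hoxb8, at 0.75 to 2.15 and 0.57 to 1.43, also reached a mean of 1 TPM in bulk tumors and not in the other types, but their differences missed 1.5-fold. Hoxb5 and Hoxb8 differed by 0.47 (adjusted p = 0.0126) and 0.39 (adjusted p = 0.0397).

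The genes that were lower in bulk tumors were 3 of the 5 that were higher in sorted than in cultured cells. These comparisons share the sorted libraries. Hoxa5 ranged from 3.89 to 6.47 TPM in bulk tumors, just under the lowest sorted value of 6.57, with a difference of -0.78 (SE 0.104, adjusted p = 5.35e-05). Hoxa6 ranged from 1.26 to 2.69 TPM in bulk tumors, below all sorted libraries, with a difference of -0.999 (SE 0.181, adjusted p = 6.43e-04). Hoxb9 read 10.3 and 13.8 TPM (control), 11.3 and 11.9 (sg492) and 8.25 and 3.83 (sg495) in bulk, overlapping the sorted range, with a difference of -0.59 (SE 0.144, adjusted p = 0.00474). That call rests on several single libraries, since without bulk sg495 replicate 2 the difference was -0.44, and it also fell under 1.5-fold without bulk control replicate 1 (-0.53), bulk sg492 replicate 1 (-0.58), sorted sg492 replicate 2 (-0.57) or sorted sg495 replicate 1 (-0.57). Melanocyte marker sums were alike in bulk (15590 to 16640 TPM) and sorted libraries (15290 to 18030). The median of the same 8 markers was 1139 to 1282 TPM in bulk and 917.9 to 1136 TPM in sorted libraries, without overlap. The part of melanocyte content in these Hox differences was not tested.

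**Figure D4:**
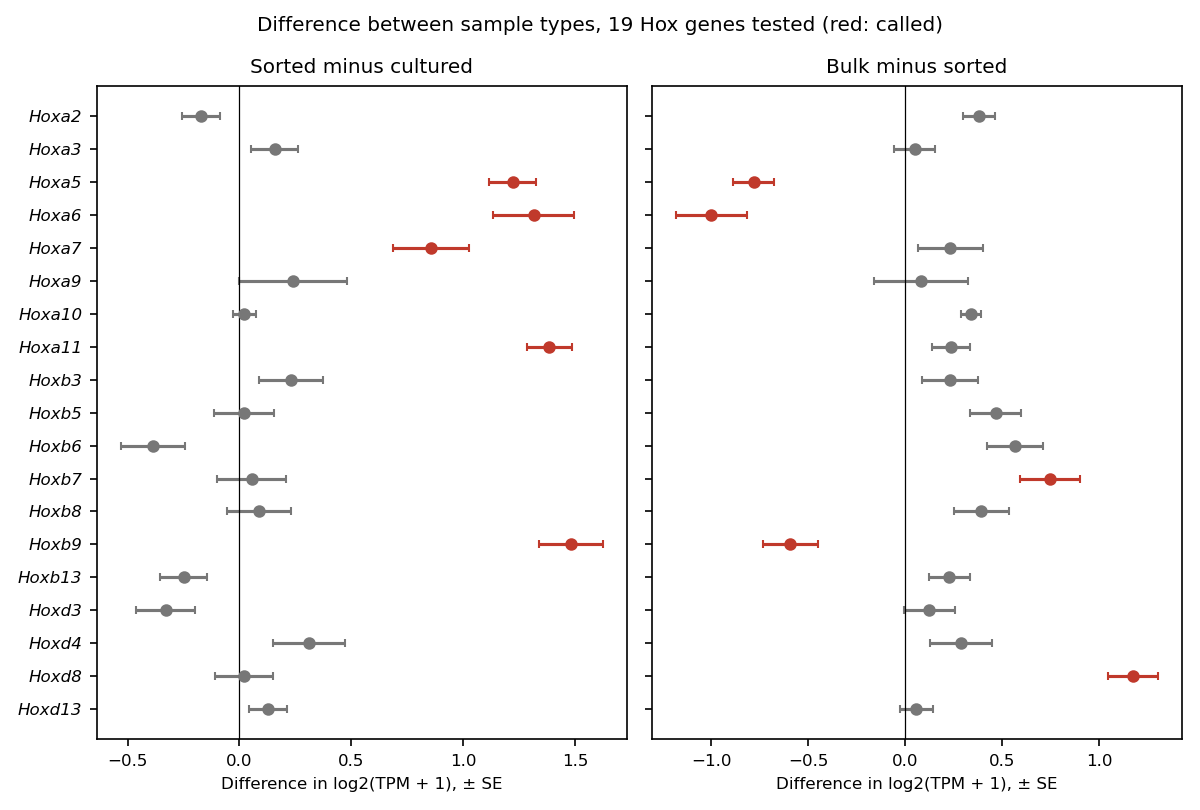
Differences in log2(TPM + 1) with standard errors for the 19 Hox genes tested, sorted minus cultured on the left and bulk minus sorted on the right. Red points were called (adjusted p below 0.05 and at least 1.5-fold). Hoxa5, Hoxa6 and Hoxb9 are red on opposite sides of 0 in the 2 panels.

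Several Hox genes that the line itself hardly expressed were seen mostly in bulk tumors. The next counts cover Hox genes of any level. Values in every bulk library lay above those in every sorted library for 9 of the 33 Hox genes above 0 in at least 1 of these libraries (Hoxa4, Hoxa10, Hoxb2, Hoxb7, Hoxc5, Hoxc6, Hoxc10, Hoxd8 and Hoxd9), or 27.3%, where 11% of the 27039 such genes in the table did so. The reverse held for 2 genes, Hoxa5 and Hoxa6, and for 3.79% of all genes. The 9 genes include Hoxa10, the highest Hox gene of the line, and Hoxb7, at 0.19 to 0.90 TPM in sorted cells. The 27.3% is therefore not a figure for genes that the line hardly expressed. Hoxb2 (chr11:96350525-96354012), an anterior gene of the hindbrain, read 0.20 and 0.85 TPM (control), 0.85 and 0.36 (sg492) and 0.59 and 0.48 (sg495) in bulk, against 0 in all sorted libraries but the second sg492 library, at 0.05. It lay under the filter of the main test and was called by limma when the filter was lowered to a mean of 0.1 TPM (log2 difference 0.61, adjusted p = 5.19e-04). Its sorted and cultured means were 0.008 and 0.01 TPM, so it passed the lowered filter only through the bulk libraries. That p-value is therefore not separate support for the difference. Hoxa4 ranged from 0.24 to 0.61 TPM in bulk and 0.05 to 0.15 in sorted cells.

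Cluster C appeared only at trace level. Hoxc6, its highest gene, read 0.70 and 0.39 TPM (control), 1.39 and 0.29 (sg492) and 0.51 and 0.13 (sg495) in bulk tumors, and at most 0.10 in sorted and 0.23 in cultured cells. Hoxc10 ranged from 0.09 to 0.61 TPM in bulk, was at 0.05 in the second sorted sg492 library and at 0 in the other sorted libraries, and was at 0 in culture. Hoxc5, Hoxc8, Hoxc9, Hoxc11 and Hoxc13 were at 0 in all sorted and cultured libraries and reached at most 0.35, 0.40, 0.21, 0.17 and 0.39 TPM in bulk. Hoxc4 was at most 0.28 TPM in any of the 3 types. Hoxc12 was at 0 in all 18 libraries, as were Hoxa13, Hoxb1, Hoxd1 and Hoxd11.

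The other genes below 1 TPM complete the list. Hoxa2 ranged from 0.28 to 1.28 TPM over the 18 libraries, Hoxb13 from 0.15 to 0.73, Hoxb4 from 0 to 0.67, Hoxd3 from 0 to 0.79, Hoxd9 from 0 to 0.22, Hoxd10 from 0 to 0.48 and Hoxd12 from 0 to 0.10. Fibroblasts, muscle and blood vessels of the trunk and limbs are known to express Hox genes of their own. Beside the Hox values of bulk tumors, the defining markers Col1a1 (72.2 to 207.8 TPM), Pecam1 (15.96 to 20.5 TPM) and Acta1 of skeletal muscle (45.5 to 103.3 TPM) were read in every bulk library. In sorted cells Col1a1 and Pecam1 stayed at no more than 1.92 and 0.85 TPM, while Acta1 ranged from 0.28 to 6.29 TPM. Marker sums for skeletal muscle (6 genes) were 130.9 to 276.6 TPM in bulk and 7.65 to 18.8 in sorted libraries, for smooth muscle and pericytes (6 genes) 80.2 to 93.7 and 12.9 to 20.6, for adipocytes (5 genes) 51.5 to 72.2 and at most 0.36, and for keratinocytes (6 genes) 0.07 to 8.71 and at most 0.02. The adipocyte sum in bulk rested on few of its genes, since their median was 0.15 to 1.5 TPM. Their part in the Hox differences was not tested.

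The third question was whether loss of NR2F6 changed Hox expression, tested for each guide against control within a sample type. Hoxb9 and Hoxa11 were lower with sg495 in cultured cells, and no other Hox gene was called with either guide. In cultured cells 2 of 12 Hox genes tested were called with sg495, both lower, where 2.77% of 12007 genes were called in either direction and 2.03% lower. The remaining comparisons called 0 Hox genes by limma. In bulk tumors these were 0 of 16 with sg495, where 0.0293% of all genes were called, and 0 of 16 with sg492, where 0% were. In sorted cells they were 0 of 12 with sg495 (0.899% of all genes) and 0 of 12 with sg492 (0.0388%). In cultured cells sg492 gave 0 of 12 (0.05%). At an unadjusted limma p below 0.05, these 5 comparisons held 1, 0, 1, 0 and 1 Hox genes in that order. Over all genes they held 2135 and 1132 of 13639 in bulk, 2010 and 920 of 12899 in sorted cells and 1265 of 12007 in culture. The Hox counts do not stand out from these.

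Hoxb9 was the gene behind each of those single cases. In culture the 2 control libraries read 7.70 and 6.79 TPM and the sg495 libraries 2.75 and 2.57, a log2 difference of -1.17 (SE 0.182, adjusted p = 0.0143). The sg492 libraries, at 5.76 and 3.79 TPM, also lay below the controls, with a difference of -0.53 (SE 0.182) that missed the test (adjusted p = 0.407). In sorted cells the controls read 17.61 and 17.99 TPM and the sg495 libraries 11.9 and 10.7, a difference of -0.62 (SE 0.112, adjusted p = 0.0741). In bulk tumors the controls read 10.3 and 13.8 TPM and the sg495 libraries 8.25 and 3.83, a difference of -0.95 (SE 0.308, adjusted p = 0.214). All sg495 libraries thus lay below both controls of their sample type. The difference passed 1.5-fold in all 3 types, and the adjusted p passed in cultured cells and missed in sorted cells and bulk tumors. Exact permutation of 2 against 2 libraries cannot go below a 2-sided p of 0.333. Fibroblast marker sums in bulk were 395.1 and 494.8 TPM in control and 654.5 and 1091 in sg495 tumors. Leukocyte marker sums were 320.4 and 413.1 TPM in control and 621.8 and 695.2 in sg495 tumors. Ptprc read 9.29 and 5.74 TPM in control and 18.16 and 26.21 in sg495 tumors. The part of either cell type in the bulk difference was not tested. In cultured cells Ptprc was at 0.

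The Hoxb9 call in culture needed all 4 libraries compared. With either control or either sg495 library left out, the difference stayed between -1.25 and -1.09 and the adjusted p lay between 0.0709 and 0.0882. With the filter on low values removed, the adjusted p was 0.0615.

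Hoxa11 in culture read 5.08 and 5.75 TPM in control, 4.46 and 3.63 in sg492 and 2.12 and 3.27 in sg495 libraries. The 3 groups did not overlap. The sg495 difference was -0.81 (SE 0.188, adjusted p = 0.0436), and the sg492 difference of -0.35 missed the test (adjusted p = 0.562). Hoxa11os read 3.49 TPM in control and 1.48 in sg495 cultures (log2 difference -0.86, adjusted p = 0.116). In tumors the Hoxa11 values were close to control, with sg495 differences of -0.12 (adjusted p = 0.713) in sorted cells and -0.09 (adjusted p = 0.824) in bulk. The call in culture sits near the threshold: it was lost when any of the 6 cultured libraries was left out (adjusted p 0.0607 to 0.175).

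No other Hox gene passed the test with a guide. Hoxa6 had the highest value with sg495 in culture, at 2.57 and 1.95 TPM against 1.41 and 0.32 in control, so that both sg495 libraries lay above both controls. Its difference of 0.86 did not pass after adjustment (SE 0.308, adjusted p = 0.134). Hoxa10 was at 24.5 and 22.5 TPM with sg495 and 26.8 and 25.7 in control cultures (difference -0.15, adjusted p = 0.256). In bulk tumors 15 of 16 Hox genes tested had a value below 0 with sg495, with a median of -0.12 beside 0.06 over all genes. No one of them passed the test. Fibroblast and leukocyte marker sums were higher in sg495 than in control bulk tumors, and their part in these values was not tested. In sorted and cultured cells, 7 and 6 of 12 lay below 0.

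**Figure D5:**
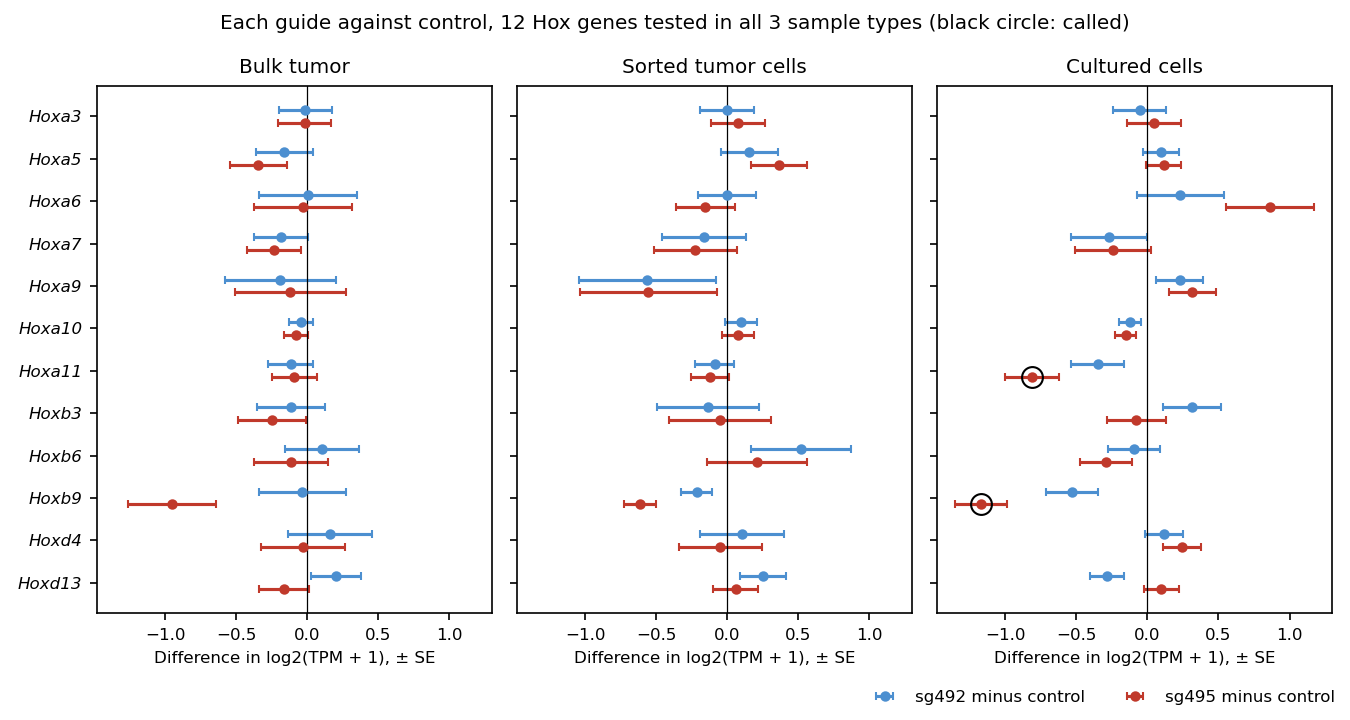
Differences in log2(TPM + 1) between each guide and control, with standard errors, for the 12 Hox genes tested in all 3 sample types. Black circles mark the called differences, Hoxa11 and Hoxb9 with sg495 in cultured cells, and the Hoxb9 value with sg495 is below 0 in each panel.

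Interaction terms in a model of the 18 libraries compared a guide's effect between sample types, and 0 of 13 Hox genes were called in each of 4 tests by limma. The share of all 13152 genes called was 2.51% for sg495 in sorted against cultured cells, 0.122% for sg495 in bulk against sorted, 0.0304% for sg492 in sorted against cultured and 0.0228% for sg492 in bulk against sorted. At an unadjusted limma p below 0.05 the tests held 2, 1, 1 and 0 of the 13 Hox genes, beside 2456, 2104, 1098 and 1360 of all 13152 genes. For Hoxa11 the sg495 difference in sorted cells exceeded that in culture by 0.69 (SE 0.242, adjusted p = 0.145). For Hoxb9 it exceeded that in culture by 0.55 (SE 0.348, adjusted p = 0.437). A different response of Hoxa11 in culture and in tumors was therefore not established by these libraries.

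Genes that work with the Hox clusters were followed from lists of cofactors, chromatin regulators, inputs and neighbours. Of 9 Pbx, Meis and Pknox cofactors, which bind DNA beside Hox proteins, 0 were called by limma between sorted and cultured cells or between bulk and sorted. Of all genes, 13.7% were called higher and 7.44% lower in the first comparison, and 11.1% and 3.95% in the second. At an unadjusted limma p below 0.05 there were 5 and 2 cofactors, beside 10175 and 8536 of all 16381 genes. Meis2 was the highest, at a mean of 60.9 TPM in cultured, 60.6 in sorted and 59.3 in bulk libraries.

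Among 21 Polycomb genes, 5 were lower and 0 higher in sorted than in cultured cells, where 7.44% of all genes were called lower and 13.7% higher. Ezh2, the methyltransferase that marks silent Hox genes, averaged 134.6 TPM in sorted and 229.9 in cultured cells (log2 difference -0.77, adjusted p = 1.28e-08). Cbx2, Cbx6, Phf19 and Rbbp4 differed by -1.06, -1.07, -0.61 and -0.60. Rbbp4 also serves other chromatin complexes and Ezh2 is known to follow cell division, and these differences were not tied to any Hox gene by a test. Between bulk and sorted samples 1 of the 21 was higher, Cbx2 (0.95), and 1 lower, Jarid2 (-0.62), beside 11.1% and 3.95% of all genes.

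Of 12 Trithorax-group and demethylase genes, 1 was called higher and 1 lower in sorted than in cultured cells, beside 13.7% and 7.44% of all genes. These counts do not stand out from the shares over all genes. Kdm6b, which removes the Polycomb mark, was higher (21.5 against 11.8 TPM, log2 difference 0.81, limma adjusted p = 3.89e-06). Men1, a partner of the Kmt2a methyltransferase, was lower (17.7 against 31.5 TPM, -0.80). In bulk tumors 1 of the 12, Men1, was higher than in sorted cells (0.65), where 11.1% of all genes were called higher. Among the retinoid genes, 3 of 11 tested were lower in sorted than in cultured cells, beside 7.44% of all genes. These were the binding protein Crabp2 (1.47 against 18.6 TPM, log2 difference -3.03, adjusted p = 5.80e-08), the retinoic acid-making enzyme Aldh1a3 (-1.12) and the receptor Rxra (-0.63). Bulk tumors had more Crabp1 and Aldh1a2 than sorted cells, at means of 1.49 and 0.88 TPM, where both genes were listed at 0 in sorted cells. Both were also at 0 in cultured cells and passed the filter of 0.25 TPM only through the bulk libraries. The Cdx genes, which switch on posterior Hox genes in the embryo, stayed at a mean of at most 0.04 TPM.

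Noncoding genes inside the clusters were tested for 7 of 16, and 3 of cluster A were higher in sorted than in cultured cells, beside 13.7% of all genes. Besides Hoxa11os these were Hotairm1, at the anterior end of cluster A (16.6 against 6.23 TPM, log2 difference 1.31, adjusted p = 1.26e-04), and Hoxaas3 (0.61, adjusted p = 0.0142). Hotair was at 0 in all 18 libraries and Hottip at no more than 0.10 TPM. The 6 listed microRNA genes of the clusters were at 0, in libraries made from polyadenylated RNA. Genes that flank the clusters were tested for 13 of 18. Of these 13, 1 was higher in sorted than in cultured cells and 1 in bulk than in sorted samples, beside 13.7% and 11.1% of all genes. The first was Calcoco1, beside cluster C (0.79). The second was Skap1, beside cluster B and known from T cells (0.99 against 0.01 TPM, 0.90). Skap1 averaged 0.02 TPM in cultured cells and passed the filter of 0.25 TPM only through the bulk libraries. No gene of these lists was called with either guide in any sample type, or in the interactions.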

How the data were processed

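RNA was sequenced from 18 libraries of 3 sample types, with 2 libraries in each of 9 groups, and from 5 IgG and anti-PD1 libraries that enter no comparison. By the study's methods and the labels, the authors trimmed single-end 75-base reads of directional poly(A) libraries with Cutadapt 2.3, aligned them to mm10 with STAR 2.7.0d and Ensembl release 84, and estimated gene expression with RSEM 1.3.1. They deposited a table of TPM, to 2 decimals, for 47643 genes. The counts behind it were not used here, so the authors' count test could not be repeated and depth per library is known only as the stated 23000000 to 31000000 reads. RSEM shares reads among overlapping genes by estimation, which touches genes with common sequence such as Hoxd3 and Hoxd4.

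TPM were used as log2(TPM + 1), so that fold changes of low genes are understated. Models with 1 mean per group came from limma 3.58.1 under R 4.3.3, by lmFit and by eBayes with a trend, after a simulated data test. Tests were 2-sided with Benjamini-Hochberg adjustment over all genes tested, and called genes had an adjusted p below 0.05 and a change of at least 1.5-fold. Guides were compared with control within the 6 libraries of a sample type for genes that averaged at least 1 TPM. Sample types were compared as the mean of 3 groups in a model of 18 libraries, for genes that averaged at least 0.25 TPM, and interactions in the same model at 1 TPM. A gene high in a single sample type can pass these filters through that type alone. Hox genes are given by their values in each library or by their range. The members and the lists were chosen with earlier results of these data known. Promoter windows are those of RefSeq on GRCm38.p6, and shared 75-base sequences were counted in GENCODE M21 transcripts. P-values measure the spread between the libraries of a group. Alternatives covered the pseudocount, filters, scaling, the model, a replicate block and leaving out each library, and 2 were added after the data were seen. A result for 1 gene of the pathway lists is not reported here.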

Additional observations from a re-analysis of the deposited data

Results flagged for a closer look

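Hoxb4, a central gene of cluster B that is active in blood stem cells, stood out in the 5 IgG and anti-PD1 libraries, whose labels give the line and genotype but no tissue. It read 2.22 and 3.88 TPM in the IgG control libraries and 2.16, 1.78 and 2.33 TPM in the anti-PD1 libraries, so that the lowest of them, 1.78 TPM, lay above the highest of the 18 other libraries, at 0.67 TPM. Leukocyte markers summed to between 5202 and 7972 TPM in these 5 libraries and melanocyte markers to between 1700 and 5194 TPM. The part of either in the Hoxb4 value was not tested.

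With sg495, Hoxa5 had a difference from control of -0.35 on the log2(TPM + 1) scale in bulk tumors and 0.11 in cultured cells, with every sg495 library on its side of both controls, and the difference between these effects was not tested. With sg492, Hoxa9 differed by -0.56 in sorted and 0.23 in cultured cells, Hoxb6 by 0.52 and -0.093, and Hoxd13 by 0.25 and -0.28. The interaction of sg492 in sorted against cultured cells was not called for Hoxa9 (-0.79, limma adjusted p = 0.774), Hoxb6 (0.61, adjusted p = 0.698) or Hoxd13 (0.54, adjusted p = 0.502). The separate effects did not pass the test in either sample type.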

How the results depend on the processing

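Each count of called Hox genes and each named difference was recomputed under the alternatives. Of 530 recomputed counts 507 stayed within 1.5 times the reported count. Most of the 530 recompute a reported count of 0, so that this share says little about the calls. The 2 genes lower with sg495 in culture kept that count in 5 of 11 alternatives and 0 of 6 leave-one-out fits. Of 406 recomputed differences of single genes 380 kept their direction and call, 25 lost the call, 1 gained it and 0 reversed. The 5 Hox genes higher in sorted than in cultured cells were called in all 11 alternatives and 18 leave-one-out fits.

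For sg495 in cultured cells, the reported 2 lower genes became 1 (Hoxb9) with the replicate block, with eBayes without a trend, with a mean of at least 0.25 TPM and with only the 4 libraries compared, and 0 without a filter and with a mean of at least 5 TPM. Leaving out a library gave 0 to 1. For sg495 in bulk tumors, 1 gene (Hoxb9, adjusted p = 0.0400) was called lower when all 18 libraries were fitted together. For sorted minus cultured, 2 genes (Hoxb6 and Hoxd3) were called lower with a pseudocount of 0.1, with quantile normalization and without a fold threshold, and 1 (Hoxb6) with control groups only. For bulk minus sorted, the 2 higher genes became 6 with a pseudocount of 0.1, 7 without a fold threshold, 1 with quantile normalization and 0 with a mean of at least 1 TPM, and 2 to 4 when a library was left out, the 4 being without sorted sg492 replicate 2. The 3 lower genes became 1 (Hoxa6) with control groups only, which leaves 2 libraries a type. The filters and the smaller sets of libraries change which genes or samples are tested. For the other settings the cause was not tested.

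Replicate numbers did not pair the libraries, with correlations of deviations between same-numbered libraries from -0.126 to 0.0507, and the replicate block changed no other count of Hox genes by over 1.5 times. Exchanging the numbers of the sg492 bulk tumors, added after seeing the data, gave 0 genes as before. Over all genes, the counts moved more. For sg495 in cultured cells they lay between 35 and 542 higher and 125 and 900 lower (reported 88 and 244), in sorted cells between 0 and 238 and 0 and 146 (78 and 38) and in bulk tumors between 0 and 526 and 0 and 35 (3 and 1). For sg492 they reached at most 56 higher in bulk, 12 in sorted and 3 in cultured libraries. Sorted minus cultured ranged from 1692 to 4935 higher and 1051 to 4654 lower (2247 and 1218), and bulk minus sorted from 1218 to 4832 and 567 to 2709 (1823 and 647). The sg495 interactions ranged from 112 to 299 higher and 23 to 245 lower for sorted against cultured (245 and 85) and from 3 to 110 and 3 to 29 for bulk against sorted (9 and 7), and those of sg492 reached at most 45 higher and 10 lower. With 2 libraries a group and no counts, differences of low Hox genes under 1.5-fold are not resolved.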

Other observations

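Hoxa10 was the highest Hox gene in 4 of the 5 IgG and anti-PD1 libraries, at lower levels than in the other 18. Hoxa10 read 5.0 and 1.71 TPM in the IgG control libraries and 11.09, 10.03 and 5.11 TPM in the anti-PD1 libraries. Hoxd13 read 1.98 and 0 TPM and then 2.37, 1.69 and 0.82 TPM in the same order. Their Hox sums were 25.1 and 16.8 TPM, and 41.4, 34.5 and 21.8 TPM. The second IgG control library differed from the other 4. Its highest Hox genes were Hoxb4 (3.88 TPM), Hoxc9 and Hoxb8 (2.42 TPM), with Hoxd13, Hoxa5, Hoxa6, Hoxa7, Hoxa9 and Hoxd4 listed at 0, and cluster A gave 16.8% of its Hox sum. It listed Hoxc9 at 3.84 TPM, which was at 0 in 3 of the other 4 and at most 0.15 TPM in them. That library also had the lowest melanocyte marker sum of the 5, at 1700 TPM.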
